A study of Homo sapiens with 73 samples.

Results

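The genes described here are the MYC family and the MAX network: the transcription factors MYC, MYCN and MYCL, their obligate partner MAX, the MAX-binding repressors MXD1, MXD3, MXD4, MXI1 and MNT, and the MAX partner MGA. The members were listed by symbol and all 10 were found among the 36233 genes of the deposited table. The set was chosen from measured values in part, because a fall of MYCN over time in treated lineages was already known. MYCN differences between arms and over time are therefore given as estimates with no p-value. Slopes of treated lineages are a description, and counts of them past the threshold stand beside the share over all genes.

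RNA was sequenced from CHLA-9, an established Ewing sarcoma cell line of bone with the EWSR1-FLI1 genotype, as cultures were selected with drugs. The treated arm is lineages R1 to R7 (49 libraries), which received VDC (vincristine, doxorubicin and cyclophosphamide) at odd time points and EC (etoposide and cyclophosphamide) at even ones, for 5 cycles or 10 time points. Each exposure lasted 5 days at the EC70, the dose with 70% of the full effect, and RNA was taken after drug-free regrowth to high confluency. Lineages R8 to R10 (23 libraries) received DMSO, the drug solvent, at the same time points, and 1 library came from the untreated parental line at time point 0. All libraries derive from this 1 cell line, and a lineage is a culture followed over time. Treated libraries exist for time points 1 and 3 to 10 and DMSO libraries for time points 1, 2 and 4 to 10, with R8 alone at time point 7.

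MYC proteins bind DNA as dimers with MAX at E-box sequences and raise transcription of genes for ribosome production, metabolism and cell division. MXD proteins, MXI1 and MNT compete for MAX and recruit SIN3 and histone deacetylase co-repressors, while MGA joins MAX to a Polycomb complex named PRC1.6. In Ewing sarcoma MYC is commonly expressed at high levels, and MYCN is best known as the amplified oncogene of neuroblastoma.

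Values are quantile-normalized counts, that is, counts forced to a common distribution across libraries, and tests were run on log2(value + 1). That distribution differed slightly between the arms, with a total of 13583520 in treated columns and 13582508 in DMSO and parental columns. Differences between arms include any effect of this, which cannot be told apart. The depth of the libraries is unknown, so the precision that read numbers give cannot be stated. All 10 members passed the filter of a mean of at least 10, as did 14565 genes in all. The mean of MYCN lay just above that limit. It was 8.73 over treated libraries, 14.1 over DMSO libraries and 25.3 in the parental one. MYCN thus passed the filter only through the DMSO and parental libraries. Ewing sarcoma markers summed to between 98612 and 207473 per library, and 14 of 15 reached a mean of 10. CCND1 and FCGRT had the highest medians of them, 41936 each, while CD99 reached at most 2.31. A mean of 10 was also reached by 9 of 11 muscle and fibroblast markers, 4 of 8 epithelial markers and 1 of 8 blood cell markers.

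Lineage R8, and less clearly R1, stood apart from its label. By the mean distance over all genes tested, libraries labelled DMSO R8 lay nearer the treated than the other DMSO libraries at 6 of 7 time points with both arms. For treated lineages the count nearer DMSO was 3 of 6 in R1, 4 of 7 in R5, 3 of 7 in R6 and 0 to 2 in the other 4. By the single nearest library of another lineage, 8 of 9 R8 libraries, 3 of 7 of R9 and 2 of 7 of R10 had a treated one. A DMSO library was nearest for 4 of 7 R1 libraries, among them time point 3, and for at most 1 in each other treated lineage. Results that rest on R1 or R8 are given with and without them below. Leaving out each lineage alone was planned, whereas leaving out both was chosen after their values were seen and widens the gap between arms by its construction.

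Promoter windows of 4 members are shown because MYCN varied most between lineages, MNT was the member whose lineage values did not overlap between arms, MYCL had a positive slope in every lineage, and MXD4 and MNT hold the E-box that MYC and MAX dimers bind. The 250 bases before the start site were taken from RefSeq on GRCh38.p14 for 9 of the 10 members. No MYC window was examined. Motifs are in capitals.
MYCN, chr2:15940300-15940549, plus strand: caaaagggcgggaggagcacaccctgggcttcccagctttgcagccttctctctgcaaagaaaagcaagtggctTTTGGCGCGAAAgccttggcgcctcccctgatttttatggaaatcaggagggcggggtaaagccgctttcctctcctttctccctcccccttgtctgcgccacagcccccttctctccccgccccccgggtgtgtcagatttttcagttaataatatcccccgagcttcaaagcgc
MYCL, chr1:39901918-39902167, minus strand: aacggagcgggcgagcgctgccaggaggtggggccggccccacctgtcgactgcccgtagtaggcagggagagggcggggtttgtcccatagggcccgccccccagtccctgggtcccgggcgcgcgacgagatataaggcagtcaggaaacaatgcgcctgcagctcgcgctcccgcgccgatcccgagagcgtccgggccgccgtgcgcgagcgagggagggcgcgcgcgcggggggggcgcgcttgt
MNT, chr17:2401061-2401310, minus strand: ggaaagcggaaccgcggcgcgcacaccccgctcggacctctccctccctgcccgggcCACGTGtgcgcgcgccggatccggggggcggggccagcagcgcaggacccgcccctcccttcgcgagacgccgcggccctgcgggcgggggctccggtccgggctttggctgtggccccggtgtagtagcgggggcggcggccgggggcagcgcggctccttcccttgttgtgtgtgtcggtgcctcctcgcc
MXD4, chr4:2262110-2262359, minus strand: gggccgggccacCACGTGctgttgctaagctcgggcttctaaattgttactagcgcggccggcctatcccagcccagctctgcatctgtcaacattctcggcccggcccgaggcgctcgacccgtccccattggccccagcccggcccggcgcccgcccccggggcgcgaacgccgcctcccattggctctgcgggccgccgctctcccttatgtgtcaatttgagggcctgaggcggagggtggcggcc
The MYCN window held a pair of overlapping E2F motifs, TTTGGCGC or TTTCGCGC on either strand, whose first bases lie 176 and 172 bases before the start. E2F factors control genes of S phase entry. That motif was present in 0.968% of 35116 windows of the same length. The E-box CACGTG, which reads the same on both strands, began 193 bases before the start of MNT and 238 bases before that of MXD4, and 6.34% of windows held it. No other window of the 9 members examined held the E-box, and 1 of 3 MGA windows held the E2F motif. Among listed MYC-activated metabolic, chaperone and cell cycle genes, 10 of 18 with a window had an E-box, and among ribosome biogenesis and nucleolar genes 3 of 24, beside 7.73% of 27305 genes. A match is a description of letters and not of binding.

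MYC was by far the most abundant member. Divided by the length of all annotated exons (GENCODE v29), its level was 2341 ± 132 quantile-normalized counts per kb (SD over 10 lineage means). MAX (188 ± 7.78) and MXD4 (182 ± 12.6) followed and did not differ beyond their spread. MXI1 (159 ± 12.6) and MGA (153 ± 10.1) also overlapped. MNT reached 128 ± 9.19 and MXD3 79.8 ± 7.61. MYCL (28.9 ± 3.25) and MXD1 (23.8 ± 3.41) again lay within each other's range, and MYCN came last at 4.09 ± 1.89. MYC made up between 97.4% and 99.3% of the summed level per kb of MYC, MYCN and MYCL over the 73 libraries.

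**Figure D1:**
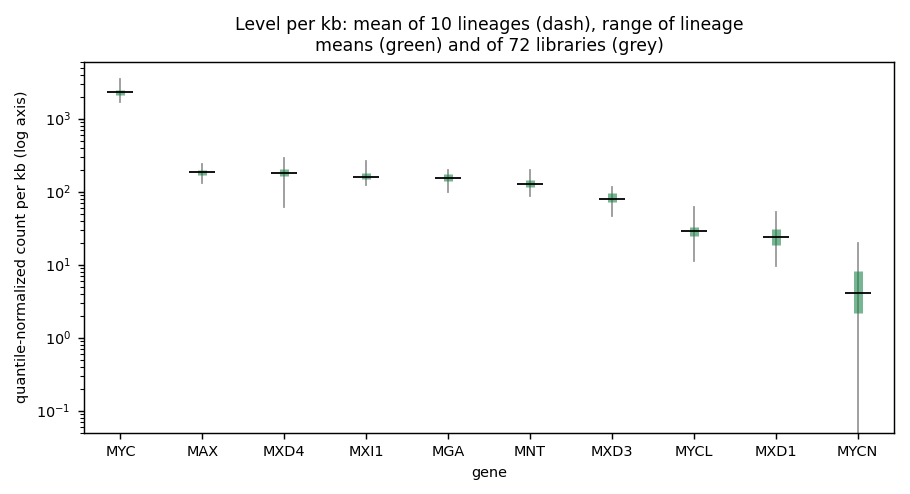
Level of each member per kb of exon, in quantile-normalized counts on a log axis. Dashes are means of 10 lineage means, green bars the range of lineage means and grey lines the range of 72 libraries; MYC at 2341 lies above all others and the grey line of MYCN runs below the axis to 0.00362.

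Drug and solvent arms were first compared over all time points, with 1 value per lineage adjusted for time point. No member passed the threshold (Benjamini-Hochberg adjusted p under 0.05, limma), and the background was 0% of genes called, with 1965 of 14565 genes at an unadjusted p under 0.05. Estimates were negative for 7 members and positive for 3. The median over the members was -0.056 on the log2 scale, beside -0.0036 over all genes. MYCN had the lowest estimate, at -0.77 ± 0.32 (SE), followed by MNT (-0.16 ± 0.05), MXI1 (-0.14 ± 0.05) and MYC (-0.094 ± 0.046). Exact 2-sided permutation of the 10 lineage values, over 120 splits with a smallest possible p of 0.00833, gave p = 0.025 for MNT and for MXI1, and 0.075 for MYC. These p-values are unadjusted and 10 were computed. The other members, MYCN left aside, gave 0.358 or more.

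**Figure D2:**
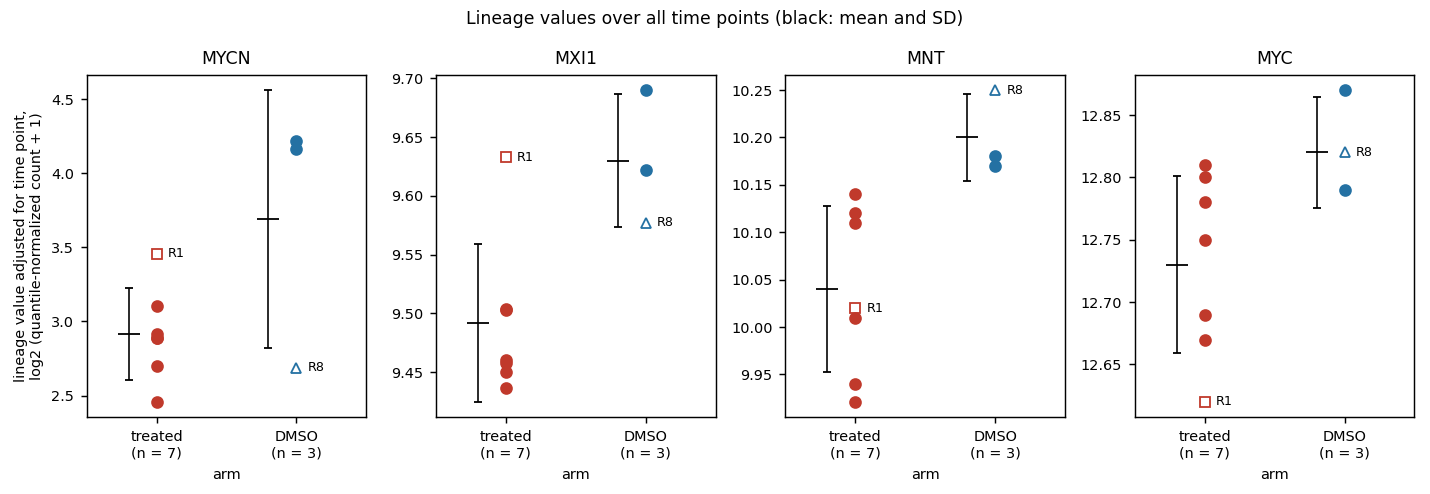
Lineage values over all time points for MYCN, MXI1, MNT and MYC, on the log2(quantile-normalized count + 1) scale. Points are 7 treated (red) and 3 DMSO (blue) lineages and black marks the mean and SD; R8 lies among the treated lineages for MYCN, at 2.69, and R1 among the DMSO lineages for MXI1, at 9.63.

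MYCN, the family member active in embryonic neural tissue, was low and variable. The parental library had 25.3 normalized counts, above 69 of the 72 other libraries. At time point 1 the treated libraries ran from 8.62 over a median of 18.3 to 27.8, and DMSO R8, R9 and R10 had 12.6, 15.9 and 18.8, so the arms overlapped. At time point 8 the treated range was 0.0094 to 7.90 with a median of 3.01, and R8, R9 and R10 had 3.52, 27.5 and 15.6. R9 and R10 were above every treated library there and R8 was inside the treated range. At time point 9 treated R1, R4 and R5 had 2.44, 6.40 and 3.97, below 7.10, 51.3 and 22.1 in R8, R9 and R10. The arms did not overlap at that time point, nor did they for 8.03% of all genes with 3 libraries each, and R9 at 51.3 was the highest MYCN value of the series. At time point 10 treated R2, R5 and R6 had 1.38, 2.13 and 3.57, and R8 and R10 had 3.37 and 13.04.

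Over time points 5 to 8, MYCN medians were 3.44 in R8, 10.4 in R9 and 15.6 in R10. Treated lineages R2 to R7 lay between 2.83 and 9.41, and treated R1 had 19.6. R8 was thus low and R1 high for their labels over these time points, while R1 had 3.92 at time point 4 and 2.44 at time point 9. In the distances over all genes R8 also stood apart, and R1 less clearly. Treated R5, nearer DMSO at 4 of 7 time points, had the lowest treated MYCN median, 2.83. In bulk libraries, fewer cells with a transcript and less of it per cell cannot be told apart. Slopes of MYCN on the log2 scale were negative in 7 of 7 treated lineages, from -0.51 in R3 to -0.097 in R6. They were -0.18 in R8, 0.22 in R9 and -0.016 in R10, so the arms overlapped. The mean slope was -0.27 ± 0.16 (SD, n = 7) per time point in the treated arm and 0.0054 ± 0.20 (SD, n = 3) in the DMSO arm.

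The size of the MYCN differences depended on R8. Without R8 the arm difference was -1.43 ± 0.23, in a fit that called 9.31% of all genes, against -0.77 with it. At time point 8 the difference was -2.43 ± 0.65 without R8 (3.56% of genes called) and -1.67 with it. At time point 9 it was -2.79 ± 0.73 without R8 (9.10% of genes called) and -2.09 with it. Without R1 and R8 together the arm difference of MYCN was -1.49 ± 0.20 and that of MXI1 -0.17 ± 0.04, with 17.4% of genes called. R8 was the lowest of the DMSO lineages for MYCN, so its removal had to lower these estimates. Adding 10 instead of 1 before the log gave an arm difference of -0.40 for MYCN, since the gene is low.

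MYCN lies on chromosome 2 from 15940564 to 15947007 (GRCh38, GENCODE v29, plus strand) and overlaps the antisense transcript MYCNOS over 1686 bases, 98 of them in exons of both. Whether counting used strand is not given in the sources used here, so reads of the pair cannot be told apart there. MYCNOS itself ran from 0 to 12.8 normalized counts and was not tested, with a treated median of 5.70 at time point 1 and 0.011 at time point 8. DDX1, the RNA helicase gene upstream of MYCN that is often amplified with it, had a mean of 2404 and an arm difference of -0.031 ± 0.040 (limma adjusted p = 0.743).

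MYC was lowest before the experiment and its treated lineages started low. The parental library had 4590, below all 72 others, which ran from 5047 to 10486. Of all genes, 1.20% had the parental library below every other. Summed immediate early genes, the fast transcripts that serum and stress induce, were also lowest in the parental library, at 5070 against 6410 to 72750 elsewhere. Their part in the MYC value was not tested. At time point 1 the 6 treated libraries had 5226 to 6083 with a median of 5892, and R8, R9 and R10 had 5621, 8266 and 7902. R8 was inside the treated range and the other DMSO libraries above it.

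At time point 4 treated MYC ran from 5047 over 5450 to 7164 while R8 and R9 had 6935 and 7329, which overlapped. At time point 5 the treated range had moved to 6253 to 9469, with a median of 8475, and R8, R9 and R10 had 9158, 7250 and 5610. At time point 8 the treated range was 6285 to 7290 with a median of 6694, and R8, R9 and R10 had 6515, 7925 and 10486, with R8 again inside it. Time point 10 gave 8266, 7329 and 7369 in treated R2, R5 and R6, and 7800 and 6432 in R8 and R10. Slopes of MYC were positive in 7 of 7 treated lineages, from 0.020 in R6 to 0.095 in R3. In DMSO lineages they were 0.019 in R8, -0.0022 in R9 and 0.0047 in R10. The slopes of the arms did not overlap, though R6 and R8 nearly met, and 1.85% of genes had slopes that did not overlap. The slope difference was 0.046 ± 0.018 (limma adjusted p = 0.495), below the threshold. PVT1, the noncoding transcript beside MYC, ran from 918 to 4935 and had an arm difference of -0.049 ± 0.13 (limma adjusted p = 0.887).

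MYCL, the member first found in lung cancer, rose in DMSO culture as well as in treated lineages. The first values of R8, R9 and R10 were 57.4, 63.4 and 79.2 and those of treated libraries, also at time point 1, 59.8 to 99.3 with a median of 78.4. At time point 10, R8 and R10 had 176 and 262 and treated R2, R5 and R6 182.6, 283.8 and 155.8. The arms overlapped at both ends, and all libraries of time point 10 were above all of time point 1, as in 5.03% of genes. The DMSO slope was 0.15 ± 0.04 per time point (limma adjusted p = 0.0251), positive in 3 of 3 lineages at 0.14, 0.14 and 0.18. MYCL was the 1 of 10 members called in the DMSO slope, where 12.3% of all genes were called, a like share. The call was lost without time point 1 (0.12, limma adjusted p = 0.224), without R9 (0.16, limma adjusted p = 0.151) and without R10 (0.14, limma adjusted p = 0.141). Treated slopes of MYCL were positive in 7 of 7 lineages, from 0.0090 in R4 to 0.19 in R3. Without time point 1 the mean treated slope was 0.021 ± 0.032 (limma adjusted p = 0.679), against 0.098 with it. Treated medians were 78.4 at time point 1, 174.6 at 3, 138.7 at 8 and 182.6 at 10.

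**Figure D3:**
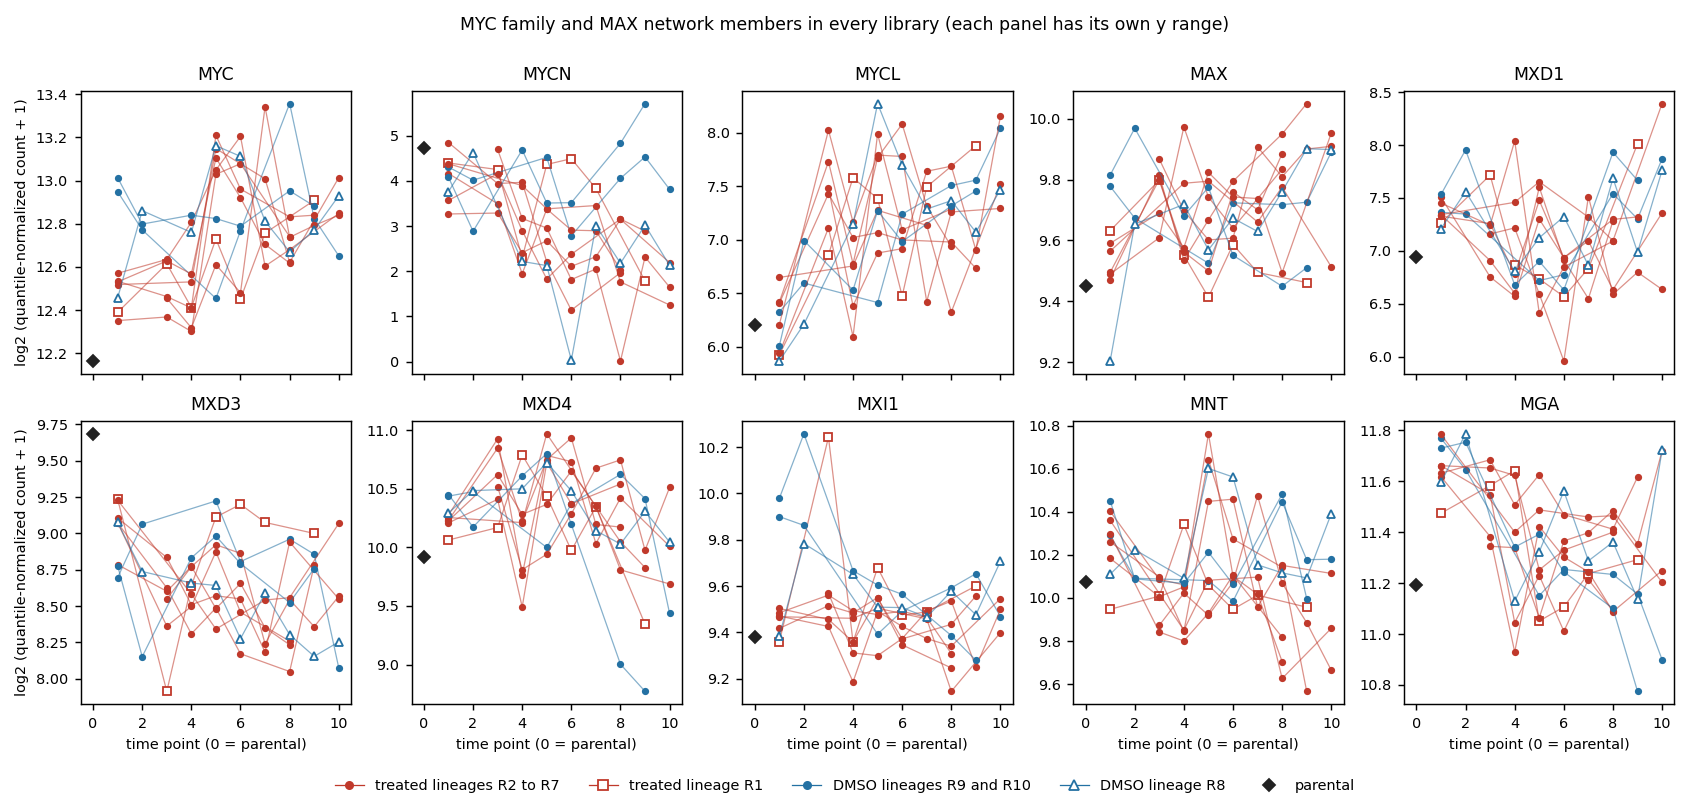
Every library's value for the 10 members over time points, as log2(quantile-normalized count + 1), with a panel and y range per gene. Red lines are treated and blue lines DMSO lineages, R1 and R8 have open symbols and the diamond is the parental library; MYCN spreads most, MYC at 4590 in the parental library lies under all others and MXD3 at 822 above all others.

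MAX, the common partner of the network, was among the steadiest. Treated libraries ran from 681 to 1059 with a median of 829, DMSO libraries from 589 to 1001 with a median of 841, and the parental library had 699. The arms overlapped throughout, with an arm difference of 0.021 ± 0.042 (limma adjusted p = 0.852). The lowest library was R8 at time point 1.

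MXI1 and MNT, repressors that take MAX away from MYC, had the lowest estimates after MYCN. For MXI1 at time point 1, treated libraries ran from 656 to 725 with a median of 708, and R8, R9 and R10 had 667, 1008 and 954. R9 and R10 were above every treated library and R8 was among them. The difference at time point 1 was -0.30 ± 0.11 (limma adjusted p = 1). With the first R8 library and the time point 3 library of R1 left out, a choice made after seeing their values, it was -0.49 ± 0.10 (limma adjusted p = 0.0382), with 0.137% of genes called. R8 had the lowest DMSO value there, so this choice widens the gap by its construction. R1 at time point 3 had 1211 for MXI1, while the other treated libraries there had 687 to 759. R9 at time point 2 had 1223, the highest of the series. At time point 4 the 7 treated libraries had 582 to 720, below 803 and 812 in R8 and R9, a difference of -0.28 ± 0.13 that did not pass. The share of all genes without overlap there was not counted. By time point 10 the values were 674, 746 and 723 in treated R2, R6 and R5 and 835 and 708 in R8 and R10, so the arms overlapped.

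For MNT, lineage values on the log2 scale ran from 9.92 to 10.14 in the 7 treated lineages and were 10.25, 10.18 and 10.17 in R8, R9 and R10. MNT was the 1 member of 10 without overlap between arms, and 3.01% of all genes had none. At time point 8 treated libraries had 789 to 1136 with a median of 987, and R8, R9 and R10 had 1109, 1429 and 1394, a difference of -0.43 ± 0.15 (limma adjusted p = 0.369). R8 was inside the treated range there. At time point 9 treated R1, R4 and R5 had 993, 757 and 944.5, all below R8, R9 and R10 with 1091, 1021 and 1157. MYCN, MNT and MGA were the 3 members without overlap at that time point, beside 8.03% of all genes. At time point 10 treated R2, R5 and R6 had 928, 811 and 1107, below 1342 and 1159 in R8 and R10. The difference was -0.41 ± 0.19 (limma adjusted p = 0.39), and the share of all genes without overlap there was not counted. Time point 5 differed, with treated R7 at 1735, R4 at 1597 and DMSO R8 at 1552 as the highest 3 values of MNT.

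MXD3, the MXD member usually found in dividing cells, was highest in the parental library. It had 822 there and 240 to 602 in the 72 others, and 2.35% of genes had the parental library above every other. Treated libraries at time point 1 (440 to 602) overlapped R8, R9 and R10 (539, 438 and 414). At time point 10 treated R2, R5 and R6 had 536, 378 and 373.5, above 304 and 269 in R8 and R10. The difference was 0.56 ± 0.27 (limma adjusted p = 0.387), and the share of all genes without overlap there was not counted. Slopes were negative in 6 of 7 treated lineages, with R1 at 0.046 the exception, and in 2 of 3 DMSO lineages. The arm difference was -0.0062 ± 0.082 (limma adjusted p = 0.979).

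MXD1 and MXD4, MXD members usually linked with differentiation and quiescence, did not separate the arms. MXD1 ran from 61.2 to 335 in treated and from 98.1 to 247 in DMSO libraries, with an arm difference of -0.070 ± 0.12 (limma adjusted p = 0.818). At time point 8 its treated values were 95.3 to 156.3 and those of DMSO 185 to 243, without overlap, a difference of -0.72 ± 0.28 (limma adjusted p = 0.405). It was the 1 member without overlap at that time point, beside 2.40% of genes. MXD4 ran from 649 to 2002 in treated and from 436 to 1781 in DMSO libraries. Its lowest values, 436 and 512, belonged to R9 at time points 9 and 8, libraries that also stood apart over all genes. The DMSO slope of MXD4 was -0.20 in R9, -0.042 in R8 and -0.051 in R10, with a mean of -0.099 ± 0.033 (limma adjusted p = 0.0692).

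MGA, the largest member protein, had negative slopes in most lineages, which did not pass the test in either arm with the lineage as the unit. Its values were 2845 to 3526 in treated and 3094 to 3490 in DMSO libraries at time point 1, and 2356 to 3374 in treated and 1909 and 3379 in DMSO libraries at time point 10. Slopes were negative in 6 of 7 treated and 3 of 3 DMSO lineages. The DMSO slope was -0.071 ± 0.022 (limma adjusted p = 0.0582). It passed in a fit over libraries with the replicate block (-0.066, limma adjusted p = 0.000104). That fit takes libraries as the unit, so its p-value leaves out the spread of slopes between lineages. The DMSO slope also passed without R8 (-0.097, limma adjusted p = 0.0264) or R5 (limma adjusted p = 0.0235). R5 is a treated lineage, so the estimate stayed at -0.071 and only the shared spread changed. The treated slope was -0.034 ± 0.015 and passed with the block and without R5. At time point 9 treated R1, R4 and R5 had 2507, 3140 and 2617, above 2252, 1751 and 2283 in R8, R9 and R10. The difference was 0.40 ± 0.16 (limma adjusted p = 0.198), and 8.03% of genes had no overlap there. The arm difference was 0.072 ± 0.068 (limma adjusted p = 0.647).

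In treated lineages 4 members passed in their slope, beside 39.1% of all genes. MYC and MYCL had positive slopes and MYCN and MNT negative ones, and nothing is read from that count because the contrast was known when the genes were chosen. Without time point 1 the count was 1. In the slope difference between arms no member passed and 0% of genes did, with 1374 at an unadjusted p under 0.05. Estimates were positive for 5 members and negative for 5. MXD4 (0.076 ± 0.040), MYC (0.046 ± 0.018), MGA (0.038 ± 0.027), MXI1 (0.038 ± 0.021) and MAX (0.019 ± 0.025) were above 0, and MYCN (-0.28 ± 0.11, a description), MYCL (-0.054 ± 0.042), MXD1 (-0.035 ± 0.032), MNT (-0.034 ± 0.017) and MXD3 (-0.0021 ± 0.030) below it.

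**Figure D4:**
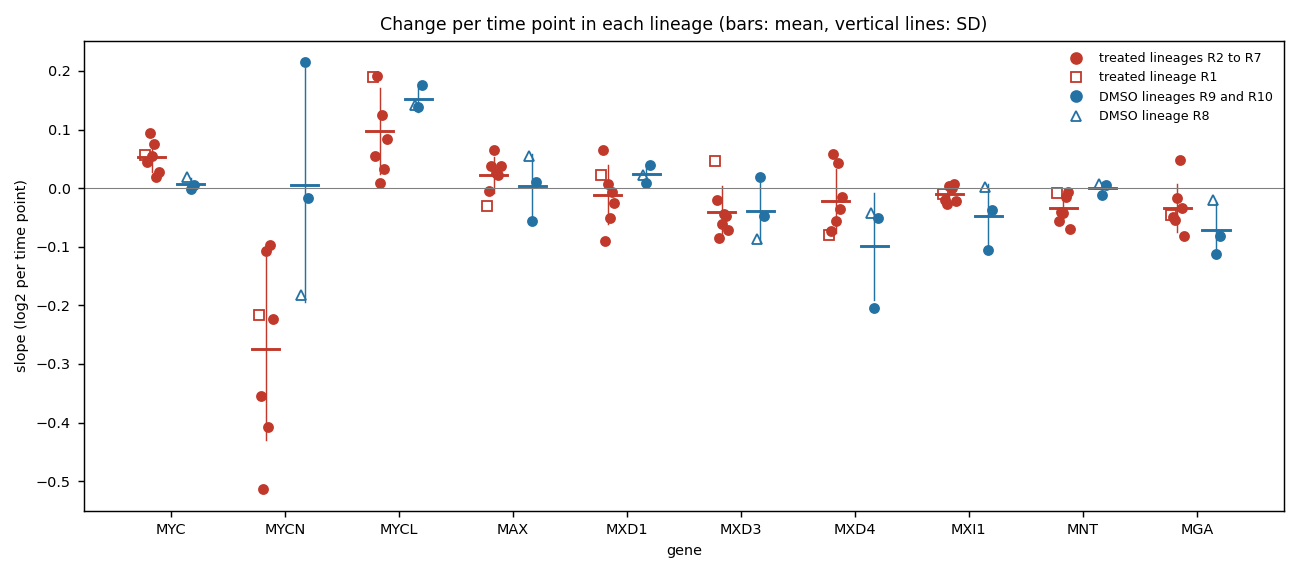
Slope per time point of each member in each lineage, on the log2 scale, for 7 treated (red) and 3 DMSO (blue) lineages with mean (bar) and SD (line). MYCN slopes spread from -0.51 to 0.22, MYCL slopes lie above 0 in all 10 lineages, and treated MYC slopes lie above those of DMSO.

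Courses were compared within treated lineages, as libraries after VDC against libraries after EC with the lineage as a block and a linear time term. Libraries are the unit in this fit, so its p-values leave out how the effect varies between lineages. No member passed, and 0.00687% of genes (1 gene) did, with 2120 genes at an unadjusted p under 0.05. Without R1, 166 genes passed and no member did. Estimates were positive for 10 of 10 members, with a median of 0.086 beside 0.00092 over all genes. The share of all genes with a positive sign was not counted. Single lineages were less uniform, with a positive effect in 2 of 7 for MXD3, 3 of 7 for MAX and 4 of 7 for MXD4, MNT and MGA. The estimates of MAX (0.010 ± 0.047) and MXD3 (0.025 ± 0.097) were smaller than their SE. MYC had 0.17 ± 0.07 (limma adjusted p = 0.229), higher after VDC in 6 of 7 lineages, with R6 at -0.16 the exception. MXI1 had 0.10 ± 0.05 (limma adjusted p = 0.319), also in 6 of 7. MYCN had 0.47 ± 0.25 (limma adjusted p = 0.371), and its DMSO lineages gave 0.66 ± 0.36 for the same time points without drug. The difference of this effect between arms passed for no member and for 0% of genes, with 685 at an unadjusted p under 0.05. Immediate early genes mostly had the same sign, with 13 of 15 positive and a median of 0.55, none past the threshold. All 13 mitochondrially encoded genes were positive too, with a median of 0.10. Of 30 MYC-activated ribosome biogenesis and nucleolar genes, 7 were positive, with a median of -0.036. Of 20 metabolic, chaperone and cell cycle targets 10 were positive, and of 15 proliferation genes 1 was, with a median of -0.11. The part of these lists in the MYC value was not tested.

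At single time points no member passed at 1, 4, 5, 6, 7, 8, 9 or 10. That fit has no lineage term, so its p-values take repeated libraries of a lineage as independent. The background was 0% of genes called at time points 1, 4, 5, 6, 7 and 8, 1.33% at 9 and 0.0618% at 10. Unadjusted p-values under 0.05 belonged to 376, 450, 197, 569, 182 and 1476 genes at the first 6 of these. Estimates for MYC were -0.32 ± 0.15 at time point 1, -0.32 ± 0.16 at 4 and -0.29 ± 0.15 at 8, and between -0.040 and 0.17 at the other 5, none beyond the threshold.

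Genes around the network were counted from fixed lists, and in the arm difference, the slope difference and the VDC against EC comparison no listed gene passed. Slope counts of the lists are to be read beside the shares over all genes, and a like share says nothing about a list. In either direction 12.3% of all genes were called in DMSO slopes and 39.1% in treated slopes. By direction, 893 of 14565 genes rose and 899 fell in DMSO slopes, and 2367 rose and 3328 fell in treated slopes. Of 30 ribosome biogenesis and nucleolar genes that MYC activates, 0 passed in DMSO slopes, with a median of 0.020 beside -0.0091 over all genes. In treated slopes 9 rose and 1, MYBBP1A (-0.047 ± 0.008), fell, with a median of 0.023 beside -0.0076 over all genes. Counted in both directions this was a smaller share than over all genes, while rises alone were a larger one. MYBBP1A, a nucleolar MYB-binding protein, also had the smallest p in the arm difference, at -0.16 ± 0.05 (limma adjusted p = 0.288). Of 20 metabolic, chaperone and cell cycle targets, SHMT2 of serine metabolism (0.12 ± 0.02) and ODC1 of polyamine synthesis (0.063 ± 0.017) rose and the folate carrier SLC19A1 (-0.050 ± 0.012) fell in DMSO slopes. In treated slopes 3 rose and 4 fell. Of 11 tested MYC-repressed genes, the cell cycle inhibitor CDKN1A (0.58 ± 0.16) and TGFBR2 (0.15 ± 0.04) rose and NDRG2 (-0.090 ± 0.024) fell in DMSO slopes, and 3 rose and 1 fell in treated slopes.

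Among 13 factors that set MYC and MYCN protein stability, the kinases PIM3 (0.17 ± 0.03) and AURKA (0.16 ± 0.04), which shields MYCN from degradation, rose in DMSO slopes. In treated slopes 2 rose and 1 fell. FBXW7, the ubiquitin ligase subunit that marks MYC for degradation, had an arm difference of -0.015 ± 0.045 (limma adjusted p = 0.902). Of 12 co-activators, the acetyltransferase KAT2A (-0.12 ± 0.03) and its scaffold TRRAP (-0.062 ± 0.016) fell in DMSO slopes, and in treated slopes 2 rose and 2 fell. RBBP4 (-0.068 ± 0.018), a histone-binding subunit, was the 1 of 9 MXD and MNT co-repressor genes that fell in DMSO slopes, and in treated slopes 1 rose and 1 fell. Of 10 MGA partners in PRC1.6, L3MBTL2 (-0.048 ± 0.014) fell in DMSO slopes and 2 rose and 2 fell in treated slopes. In the parallel MLX branch, which senses sugar, 4 of 5 genes were tested. Its target TXNIP rose in DMSO slopes (0.16 ± 0.04) and, with ARRDC4, in treated slopes, while MLX (-0.12 ± 0.06) and MLXIP (0.063 ± 0.050) had arm differences that did not pass. Of 3 tested neighbours of MYC family genes, 0 passed in DMSO slopes and PVT1 fell in treated slopes (-0.10 ± 0.03).

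Lists on cell state were counted the same way. FOSL1 (0.54 ± 0.15) and IER3 (0.37 ± 0.09) of 15 immediate early genes rose in DMSO slopes, 6 rose in treated slopes and none fell in either. Over all 14565 genes 893 rose in DMSO slopes and 2367 in treated slopes, smaller shares in both. Of 15 proliferation genes 0 passed in DMSO slopes and 1 fell in treated slopes, and CCNE1 had the smallest p in the arm difference (0.26 ± 0.09, limma adjusted p = 0.308). All 13 mitochondrially encoded genes fell in both arms' slopes, ND6 (-0.27 ± 0.04), ATP6 (-0.25 ± 0.04) and ND2 (-0.24 ± 0.03) most in DMSO. Of 14 Ewing sarcoma markers tested, LIPI (-0.19 ± 0.03) and STEAP1 (-0.15 ± 0.04) fell in DMSO slopes, and 1 rose and 4 fell in treated slopes. ESRP1 (0.35 ± 0.09) of 4 epithelial markers rose in DMSO slopes and 3 rose in treated slopes. Of 9 muscle and fibroblast markers ACTA2 (0.35 ± 0.09) rose and COL1A2 (-0.10 ± 0.03) fell in DMSO slopes, and 5 rose in treated slopes. CD79A, the 1 blood marker tested, passed in neither. Their part in the members' values was not tested.

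Patterns most like each member were ranked by Pearson's r of log2 values over the 73 libraries, which share lineages and the quantile scale, so r is a description. MYC was followed most closely by the Notch target HES1 (0.754), CHMP1B (0.738), the immediate early gene EGR1 (0.701), DNAJB9 (0.696) and CITED4 (0.691). MYCN was followed by the fatty acid desaturase FADS1 (0.724), CCDC8 (0.723), NPY5R (0.712), RCOR1 (0.71) and FUZ (0.705). The nearest for MYCL were IGDCC4 (0.79) and COL16A1 (0.756), for MAX the translation factors EIF3H (0.785) and EIF2S3 (0.765), for MXD1 DLGAP1 (0.746) and TP53BP2 (0.744), and for MXD3 PKN3 (0.772) and DYNC2I2 (0.767). MXD4 had DOCK1 (0.806) and LYRM9 (0.805), MXI1 SWT1 (0.803) and KIAA1586 (0.747), and MNT NDUFA10 (0.713) and STING1 (0.666). MGA had the highest of all, with the chromatin remodeller CHD6 (0.886) and MIR3936HG (0.854). Within the network, MYC went with MYCL (0.511) and MNT (0.457) and against MYCN (-0.343), and MAX went against MXD3 (-0.601).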

How the data were processed

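The labels' protocols give the Qiagen AllPrep kit for extraction and STAR for alignment and counting. FeatureCounts and the build GRCh38 also stand in the submitters' processing notes, with no version. The values the authors deposited are a signal, namely quantile-normalized counts of 36233 genes in 73 libraries. Treated columns share a total of 13583520 and DMSO and parental columns one of 13582508. How the normalization was done and which annotation was used are not given in the sources used here. Values from both targets were compared as they stand.

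The scale was log2(value + 1), and 14565 genes whose mean reached 10 were tested. Models were fitted by limma 3.58.1 in R 4.3.3, with a trend on the mean log2 level, Benjamini-Hochberg adjustment over all genes tested and a threshold of 0.05. The lineage was the unit: 1 value adjusted for time point, or 1 least squares slope, per lineage. Courses used treated libraries with the lineage as a block, and single time points a shared fit of 72 libraries. The labels do not say whether lineages began as separate cultures, so p-values of lineage values and slopes measure the spread between these lineages only. P-values of courses and single time points take libraries as the unit. Those of courses leave out how the effect varies between lineages. Those of single time points come from a fit with no lineage term. Same-numbered samples are 1 lineage: deviations from the group means had a mean r of 0.0814 in 219 such pairs and of -0.0152 in 1050 pairs of other lineages. The fits were tested on simulated data.

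The members and lists were chosen with earlier results of these data known. All members were named. From each list up to 3 genes past the threshold with the largest change in the DMSO slope, slope difference, course or arm comparison were named, or else the 1 with the smallest p, and always a few MYC-related genes. Exon lengths came from GENCODE v29. Alternatives covered the pseudocount, the filter, 1 shared quantile target, leaving out lineages, time points and libraries, and the replicate block. Figures used matplotlib 3.10.9 in Python 3.11.15.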

Additional observations from a re-analysis of the deposited data

Results flagged for a closer look

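In 7 of 90 groups of member values, 1 sample lay far from the others by Dixon's criterion, which chance meets in about 1 of 20 groups. Treated R1 accounted for 4 of them: its lineage value was the lowest of 7 for MAX (9.59 on the log2 scale, others 9.70 to 9.78) and the highest for MXI1 (9.63, others 9.44 to 9.50), MXI1 at time point 3 was 1211 (others 687 to 759), and MXD4 at time point 1 was 1068 (others 1182 to 1239). MXD3 in R7 at time point 1 was 440.2 (others 537 to 602). At time point 7, MXI1 in R6 was 662 (others 702.5 to 719) and MNT in R5 was 1422 (others 994 to 1094).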

How the results depend on the processing

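Counts of members past the threshold moved as follows. The share of all genes called in the same fit stands beside some counts only, and nothing is read from any count in this section. The arm difference went from 0 to between 0 and 1 when single lineages were left out, with 9.31% of all genes called without R8. It went to 2 (MXI1, MYCN) without lineages 1 and 8, with 17.4% of all genes called. The DMSO slope had 1 member and ranged from 0 to 4 when single lineages were left out. It had 0 with no filter and 0 without time point 1, 3 without time points 9 and 10, 3 without the 6 late libraries that stood apart, 4 with the replicate block over libraries and 4 without lineages 1 and 8; MXI1 and MGA were among the added calls in the last 4 settings. The treated slope had 4 and 1 without time point 1. Without time points 9 and 10 MNT lost its treated slope call, and MXD1, MXD3 and MGA gained one. At time point 1 the count went from 0 to 1 (MXI1) without lineages 1 and 8. It also went to 1 without lineage 8 at time point 1 and lineage 1 at time point 3, with 0.137% of all genes called. At time point 8 the count ranged from 0 to 1 over single lineages left out, with 3.56% of all genes called without R8. It was 2 (MNT, MYCN) there without lineages 1 and 8. At time point 9 it ranged from 0 to 1, with 9.10% of all genes called without R8, and was 1 (MYCN) without lineages 1 and 8. The last 2 alternatives named, without lineages 1 and 8 and without those 2 libraries, were chosen after seeing the data. The replicate block changed no call in the arm difference or the slope difference, and it added MAX and MGA to the treated slopes. For slopes it takes libraries as the unit, so its p-values leave out the spread of slopes between lineages. Counts that hold MYCN describe a known difference. No called estimate changed sign. With a minimum mean of 50 MYCN is not tested. Leaving out a DMSO lineage leaves 2, or 1 library at some time points, which is then assumed to vary like the others. Depth is unknown, and MYCN and MYCNOS sit at the low end of the scale where single values reach 0.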
